A study of Arabidopsis thaliana with 24 samples.

Results

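The A-type cyclins are 9 of the 33612 features counted in whole Arabidopsis seedlings. They were chosen by gene identifier: CYCA1;1 (AT1G44110) and CYCA1;2 (AT1G77390, also annotated as TAM), the group A2 genes CYCA2;1 (AT5G25380), CYCA2;2 (AT5G11300), CYCA2;3 (AT1G15570) and CYCA2;4 (AT1G80370), and the group A3 genes CYCA3;1 (AT5G43080), CYCA3;2 (AT1G47210) and CYCA3;4 (AT1G47230). All 9 passed the filter on low counts and stand among the 21897 genes tested. CYCA3;3 (AT1G47220), which lies between the last 2 of these on chromosome 1, is outside that choice and had 0 reads in all 24 libraries.

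Cyclins are the regulatory partners of cyclin-dependent kinases (CDKs), and their rise and destruction order the steps of cell division. Plant A-type cyclins act from DNA replication to early mitosis, and the anaphase-promoting complex (APC/C) marks them for destruction. In Arabidopsis the A2 cyclins work with plant-specific B1-type CDKs and hold back endoreduplication, the copying of DNA without division that accompanies growth of leaf cells. The DREAM complex, which holds E2F and MYB3R transcription factors, the retinoblastoma-related protein RBR1 and TSO1-like proteins, represses many genes of the division cycle.

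Poly(A) RNA of seedlings was sequenced at 9 days of age, after growth in continuous white light. There were 3 biological replicates of each of 8 genotypes: hid1, bte1, the bte1 hid1 double mutant, the hid1 phil1 double mutant, btl1, the bte1 btl1 double mutant, an e2fa e2fb e2fc triple mutant called e2f below, and the Col-0 wild type (WT). The genotype labels name no allele, and they do not say which locus bte1, btl1 or phil1 is. The sample titles of hid1 phil1 carry a code in place of the genotype, which the labels do not explain. The study's title places the series in work on the DREAM complex and WDR5a, a subunit of histone methyltransferase complexes.

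Between 14309396 and 23912716 reads were counted per library, with 14309396 to 15424866 in btl1 and bte1 btl1, 21270487 to 21885875 in e2f and 22544462 to 23912716 in WT. The 9 libraries of btl1, bte1 btl1 and e2f are called the second set below, because the deposited FPKM table lists assembled loci only for the other 15. That difference lies in the table, no label names a batch, and the depth of e2f lies in the range of the other 15 libraries (19309154 to 23912716) and not in that of btl1. Any difference in handling between the sets and genotype cannot be told apart when these 3 genotypes are compared with WT. HID1, a noncoding RNA gene, had 0 reads in every hid1 and bte1 hid1 library, 0, 9 and 0 reads in the hid1 phil1 replicates, and 163, 215 and 213 reads in WT. In the libraries labelled e2f, E2FA averaged 31.3 CPM (the library's reads of a gene scaled to a common effective library size) against 8.83 in WT, E2FC 47.5 against 11.5 and E2FB 5.53 against 6.85, so whole-gene counts give no check of that label. HID1 averaged 5.10 CPM in btl1, 5.10 CPM in bte1 btl1 and 5.74 CPM in e2f, against 8.61 CPM in WT. Every library of these mutants lay below every WT library, and none of the changes passed the test described below. The e2f libraries were also far apart from each other, with chi-square values per degree of freedom over genes of 15.2 to 33.0 between pairs, against 6.54 to 9.435 in WT. Replicate 2 of hid1 phil1, the library with the 9 HID1 reads, stood apart from the others of its genotype (19.7 and 20.13, against 4.64 between replicates 1 and 3).

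In the libraries labelled e2f, 6 of the 9 A-type cyclins rose and none fell relative to WT. All 4 A2 genes and both A1 genes were among them, and no A3 gene was. The background was high, since 52.2% of all genes tested were called in this comparison and 26.4% were called higher. In 4 of the 9 genes every e2f library lay above every WT library, against 26.9% of all genes. A call means an adjusted p under 0.05 in edgeR's quasi-likelihood test, with Benjamini-Hochberg adjustment over all 21897 genes.

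CYCA2;1 had the largest change of the 9 genes. It stood at 10.7, 10.8 and 10.2 CPM in the 3 e2f libraries, against 1.43, 0.944 and 1.36 CPM in WT. The e2f libraries lay close together and far above every WT library, a log2 change of 3.07 (SE 0.219, 8.41-fold, adjusted p = 3.84e-11). It averaged 1.18 (SD 0.344) CPM in btl1, 1.58 (SD 0.535) in bte1 btl1, 0.843 (SD 0.244) in hid1 phil1, 1.18 (SD 0.197) in bte1 hid1, 1.49 (SD 0.191) in hid1 and 0.940 (SD 0.0784) in bte1 (n = 3 each). CYCA2;4 stood at 31.0, 38.2 and 42.6 CPM in e2f, against 6.76, 6.66 and 6.83 CPM in WT. The groups did not overlap, and the log2 change was 2.46 (SE 0.123, 5.52-fold, adjusted p = 5.41e-14). Its mean was 7.80 (SD 1.02) CPM in hid1 phil1, 6.98 (SD 0.165) in bte1 hid1 and 6.53 (SD 0.801) in bte1 (n = 3 each). CYCA2;2 stood at 14.9, 19.9 and 21.0 CPM in e2f, against 4.20, 4.002 and 3.98 CPM in WT, a log2 change of 2.19 (SE 0.133, 4.58-fold, adjusted p = 1.9e-12). Its mean level elsewhere was 4.61 (SD 0.555) CPM in btl1, 3.64 (SD 0.195) in hid1 phil1, 3.33 (SD 0.231) in bte1 hid1, 4.36 (SD 0.252) in hid1 and 3.88 (SD 0.165) in bte1 (n = 3 each). In both of these genes, replicate 1 was the lowest of the e2f libraries and still more than any WT library.

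CYCA2;3, whose product is known with its CDK partner as a brake on endoreduplication, changed far less than the other A2 genes. It stood at 18.8, 28.5 and 25.5 CPM in e2f, against 18.8, 17.0 and 17.2 CPM in WT. Replicate 1 of e2f was level with replicate 1 of WT, so the groups overlapped, and the log2 change of 0.46 (SE 0.103, 1.37-fold) was called at an adjusted p of 0.000671. It averaged 15.9 (SD 0.791) CPM in btl1, 18.2 (SD 0.144) in bte1 btl1, 20.3 (SD 0.766) in hid1 phil1, 18.2 (SD 1.20) in bte1 hid1, 20.15 (SD 0.961) in hid1 and 16.6 (SD 0.885) in bte1 (n = 3 each). The 95% interval of this change ran from 0.25 to 0.67, below the intervals of the other A2 genes, which ran from 1.92 to 2.47, from 2.21 to 2.72 and, for the gene with the largest change, from 2.62 to 3.525.

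TAM is a cyclin of meiosis. It stood at 4.02, 6.11 and 7.08 CPM in e2f, against 1.596, 1.35 and 2.19 CPM in WT. No e2f library overlapped WT, and the log2 change was 1.74 (SE 0.302, 3.35-fold, adjusted p = 3.81e-05). Its mean was 1.61 (SD 0.695) CPM in btl1, 1.72 (SD 0.419) in hid1 phil1, 1.96 (SD 1.07) in bte1 hid1, 1.66 (SD 0.445) in hid1 and 1.78 (SD 0.0127) in bte1 (n = 3 each). CYCA1;1 stood at 15.6, 12.7 and 10.4 CPM in e2f, against 10.7, 8.99 and 9.15 CPM in WT. The groups overlapped, and its log2 change of 0.42 (SE 0.168, adjusted p = 0.0394) was not called without e2f replicate 1 (0.209), e2f replicate 2 (0.063), WT replicate 2 (0.113) or WT replicate 3 (0.108), nor with only these genotypes in the fit (0.0649). In bte1, where this gene was not called, it averaged 11.0 CPM (SD 1.38, n = 3).

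The 3 A3 genes did not pass the test in e2f. CYCA3;1 stood at 6.49, 6.07 and 3.84 CPM in e2f, against 4.11, 4.23 and 4.20 CPM in WT. Its log2 change was 0.39 with a 95% interval of -0.05 to 0.82 (adjusted p = 0.128), and without e2f replicate 3, the lowest, it was called at 0.0222. Its mean level elsewhere was 4.19 (SD 0.871) CPM in btl1, 4.59 (SD 0.974) in bte1 btl1, 3.20 (SD 0.741) in hid1 phil1, 3.25 (SD 0.784) in bte1 hid1, 4.87 (SD 0.554) in hid1 and 3.94 (SD 0.476) in bte1 (n = 3 each). CYCA3;2 had a log2 change of -0.11 (95% interval -0.33 to 0.10) and CYCA3;4, whose product is known as an APC/C target in root stem cells, one of -0.13 (-0.39 to 0.13). Both intervals lie below those of all 4 A2 genes.

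**Figure D1:**
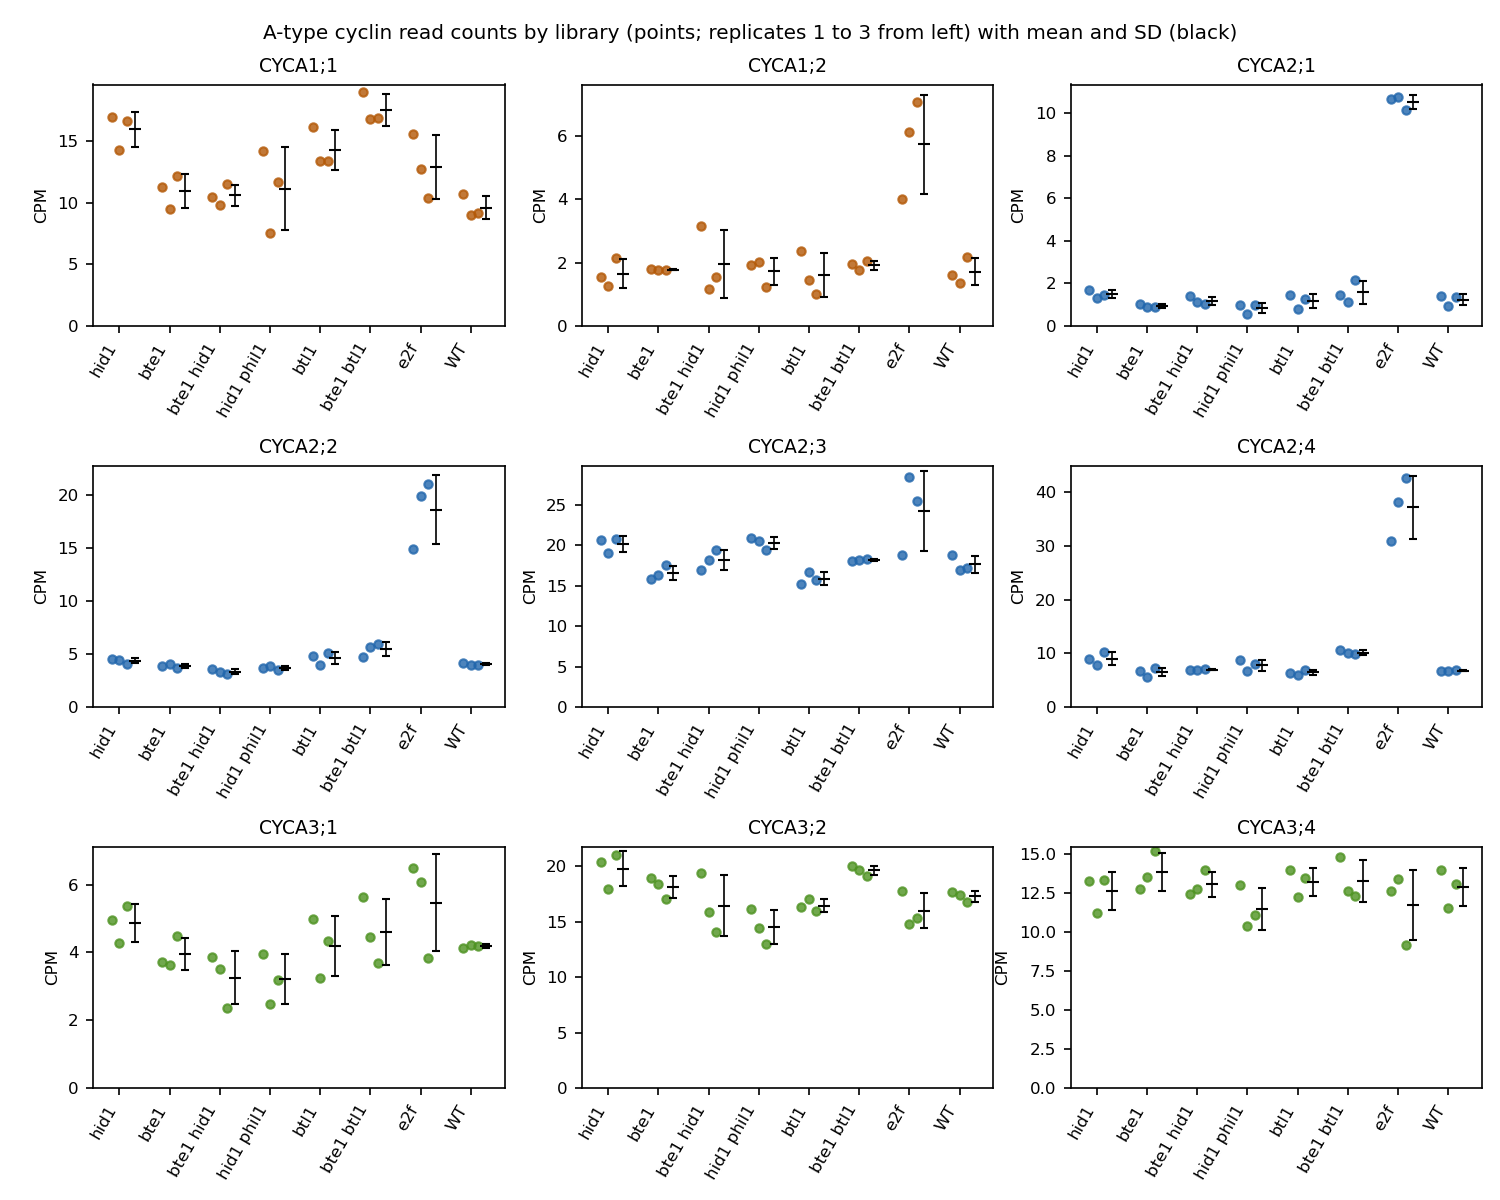
CPM of each A-type cyclin (vertical axis, linear from 0) in the 3 libraries of each genotype, with WT at the right. Points are replicates 1 to 3 from the left, and the black mark is the mean with its SD. The e2f points of CYCA2;4 (31.0 to 42.6) lie above every other library.

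Against btl1, which the FPKM table treats like e2f, 5 of the 9 genes were higher in e2f and none was lower, with 51.2% of all genes called and 26.4% called higher. The log2 changes were 3.15 for CYCA2;1 (adjusted p = 8.86e-11), 2.53 for CYCA2;4 (9.01e-14), 2.01 for CYCA2;2 (1.83e-11), 1.83 for TAM (4.56e-05) and 0.61 for CYCA2;3 (4.44e-05). For the last of these the e2f libraries, at 18.8 to 28.5 CPM, did not overlap btl1, at 15.2 to 16.8 CPM. The change of CYCA1;1 was -0.15 (95% interval -0.50 to 0.20, adjusted p = 0.471), so this gene was not called against btl1. Both comparisons use the same e2f libraries. The A2 genes and TAM were called in both comparisons whichever single library of the compared genotypes was left out.

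**Figure D2:**
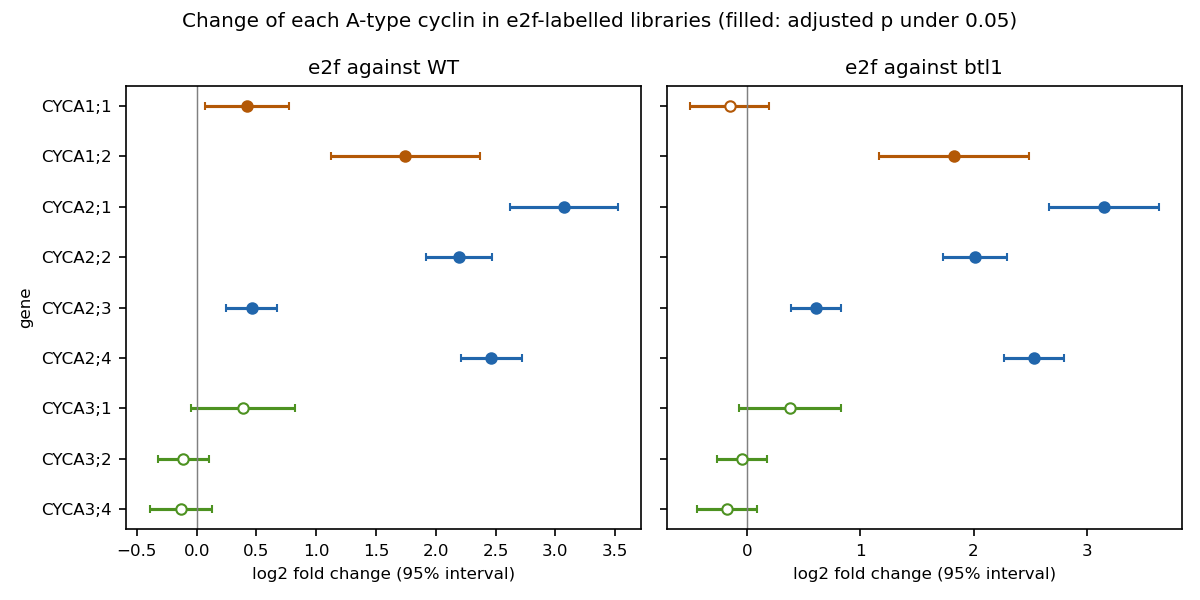
Log2 fold change (horizontal axis) of each A-type cyclin in the libraries labelled e2f, against WT at the left and against btl1 at the right. Lines are 95% intervals, and filled points had an adjusted p under 0.05. CYCA2;1 (3.07 and 3.15) stands farthest to the right in both panels, and the A3 genes are open points.

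Marker genes of other cell types differed in e2f too. The summed level of 3 leaf mesophyll genes was 19900 to 22760 CPM in e2f, against 36660 to 38690 CPM in WT. LHCB1.3 (log2 change -1.45) and LHCB2.1 (-1.47) were called lower, whereas RBCS1A had a change of -0.01 and was not called. The 4 root genes summed to 69.9 to 79.3 CPM in e2f, against 69.7 to 79.7 CPM in WT, but WER, a gene of root hair patterning, was called lower (-1.58, adjusted p = 2.69e-05). The 4 stomatal lineage genes summed to 61.0 to 62.7 CPM in e2f, against 57.9 to 59.8 CPM in WT, with SPCH (0.32) and TMM (0.25) called higher and MUTE (-0.92) lower. The 4 seed storage genes summed to 5.76 to 137.8 CPM in e2f, against 0.084 to 0.744 CPM in WT. In this list 3 genes were called higher, among them CRA1 (log2 change 6.49, adjusted p = 0.011). Another was OLEO1 (4.59, adjusted p = 0.0394), in which the groups overlapped. The 3 genes of meiocytes, where TAM acts, summed to 17.1 to 21.8 CPM in e2f, against 9.37 to 13.5 CPM in WT. SPO11-1 (log2 change 2.58) and DMC1 (0.64) were called higher among them, and SDS (0.14) was not called. Of the shoot meristem genes WUS had 0 reads in both genotypes, CLV3 at most 2 in any library, and STM averaged 4.56 CPM in e2f against 5.08 CPM in WT. Against btl1, the mesophyll sum in e2f was also lower (28710 to 34450 CPM in btl1) and the stomatal sum higher (49.2 to 55.8 CPM in btl1), while the meiocyte sums (20.21 to 21.8 CPM in btl1) and the seed sums (0.532 to 88.4 CPM in btl1) overlapped. Within the meiocyte list, though, SPO11-1 (1.31) and SDS (1.28) were called higher in e2f than in btl1, and DMC1 lower (-0.34). STM, not called against WT, was called higher in e2f than in btl1 (0.63, adjusted p = 0.00955). Of the 4 root genes, SCR was called higher than in btl1 (0.34) and 3 were called lower, among them WER (-1.58). The part of these differences in the cyclin changes was not tested, and in whole seedlings more cells of a dividing type and more RNA per cell cannot be told apart.

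Because TAM and all A2 genes were higher together in e2f, the promoters of the 9 genes were searched for motifs of cell cycle genes. The windows run from 250 bases before to 50 bases after the annotated gene start, in the RefSeq annotation of TAIR10.1. Searched on both strands were the E2F sites TTTCCCGC, TTTGGCGC, TTTCGCGC and TTTGCCGC, the MYB3R-bound core AACGG and the CHR-like hexamers TTTGAA and TTCGAA, an element known to recruit DREAM in animals. Of 27443 promoters of this length, 1.76% held an E2F site, 24.7% the AACGG core and 48.7% a CHR-like hexamer. Among the A-type cyclins the E2F site was in 1 of 9 (TAM), AACGG in 4 of 9 (both A1 genes, CYCA2;1 and CYCA3;1) and a CHR-like hexamer in 5 of 9 (CYCA1;1, 2 of the 4 A2 genes and 2 of the 3 A3 genes). The windows of 4 genes follow, 5′ to 3′ in the direction of the gene, with every motif match in capitals. The first 3 are shown because these genes rose most or hold the E2F site, and the last because of a repeat described below.
CYCA2;1 (chr5:8814267-8814566, plus strand): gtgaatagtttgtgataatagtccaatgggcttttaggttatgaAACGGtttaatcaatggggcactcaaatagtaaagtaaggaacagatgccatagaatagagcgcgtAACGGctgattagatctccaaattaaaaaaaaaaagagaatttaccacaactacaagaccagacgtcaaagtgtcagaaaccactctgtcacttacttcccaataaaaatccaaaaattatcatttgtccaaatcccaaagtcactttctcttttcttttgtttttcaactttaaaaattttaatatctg
CYCA2;4 (chr1:30213455-30213754, plus strand): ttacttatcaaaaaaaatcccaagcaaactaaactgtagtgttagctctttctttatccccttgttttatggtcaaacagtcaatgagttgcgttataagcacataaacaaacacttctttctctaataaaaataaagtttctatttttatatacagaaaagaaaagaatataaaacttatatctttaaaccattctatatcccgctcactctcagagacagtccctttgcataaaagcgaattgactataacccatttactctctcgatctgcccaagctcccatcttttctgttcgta
TAM (chr1:29084236-29084535, minus strand): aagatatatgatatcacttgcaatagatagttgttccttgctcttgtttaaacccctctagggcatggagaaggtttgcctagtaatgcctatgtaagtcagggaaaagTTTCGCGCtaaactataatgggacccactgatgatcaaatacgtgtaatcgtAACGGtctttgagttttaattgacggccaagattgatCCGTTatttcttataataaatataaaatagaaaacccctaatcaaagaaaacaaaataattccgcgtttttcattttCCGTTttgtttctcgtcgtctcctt
CYCA1;1 (chr1:16777303-16777602, minus strand): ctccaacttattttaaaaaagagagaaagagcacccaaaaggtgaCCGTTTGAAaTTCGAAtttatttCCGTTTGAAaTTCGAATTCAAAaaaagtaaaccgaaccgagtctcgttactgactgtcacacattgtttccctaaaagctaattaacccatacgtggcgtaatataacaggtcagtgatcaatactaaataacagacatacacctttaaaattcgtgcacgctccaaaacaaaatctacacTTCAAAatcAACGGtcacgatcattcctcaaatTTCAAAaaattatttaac

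The first 2 windows, of the genes with the largest changes in e2f, share none of these motifs. The first holds AACGG at 206 and 140 bases before the gene start, and the second holds no match at all. TAM holds the single E2F match of the family, TTTCGCGC, at 141 bases before its start. In the last window a stretch of 18 bases, CCGTTTGAAATTCGAATT, is repeated in the same direction at 205 and 182 bases before the start. Each copy joins AACGG (read on the other strand) with TTTGAA, which overlap, and with TTCGAA. For comparison, 8 of 9 B-type cyclins held AACGG and 7 of 9 a CHR-like hexamer, and an E2F site stood in 5 of 8 S-phase genes (MCM2, MCM3, MCM4, MCM5 and MCM6). A match is a run of letters and not a shown binding site.

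Per length of transcript, the order of the family in e2f differed from that in WT. In the authors' FPKM (fragments per kilobase, scaled by library), the order in e2f began with CYCA2;4 at 20.7 (SD 3.11, n = 3), followed by CYCA2;3 at 11.7 (SD 2.57, n = 3). In WT it began with CYCA3;2 at 11.6 and CYCA2;3 at 9.35, and CYCA2;4 stood below these at 4.05. CYCA2;1, at 0.85 FPKM, was last in WT, where it overlapped TAM at 1.17 FPKM. No other neighbours in the WT order overlapped. The A2 genes made up 54.7%, 61.9% and 65.9% of the family's summed FPKM in the e2f replicates, against 35.4%, 35.2% and 35.2% in WT. In all other mutants their share averaged between 32.5% (btl1) and 39.5% (hid1 phil1). The A3 share was 25.9% in e2f (SD 4.56, n = 3) and 49.6% in WT (SD 0.789, n = 3). FPKM of the 2 sets were scaled over different features, so levels were compared here between genes of 1 genotype, and only shares between genotypes.

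**Figure D3:**
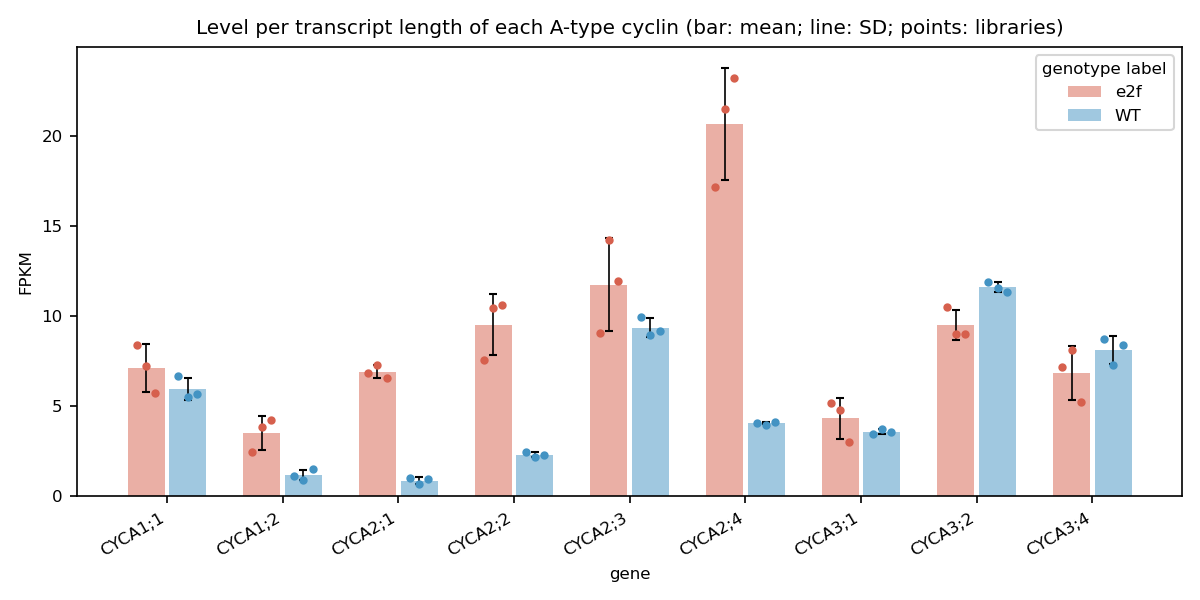
FPKM (vertical axis, linear from 0) of each A-type cyclin in the libraries labelled e2f (left bar of each pair) and in WT (right bar). Bars are means, lines SD and points the 3 libraries. FPKM of e2f and WT were scaled over different features, so bar heights are to be compared within a genotype. CYCA2;4 is the tallest bar in e2f (20.7) and CYCA3;2 the tallest in WT (11.6).

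In bte1 btl1, 3 of the 9 genes rose relative to WT and none fell, where 28.1% of all genes were called and 14.8% were called higher. In 4 of the 9 every bte1 btl1 library lay above WT, against 22.7% of all genes. CYCA1;1 stood at 19.0, 16.8 and 16.9 CPM in bte1 btl1, against 10.7, 8.99 and 9.15 CPM in WT. Every bte1 btl1 library lay above WT, and the log2 change was 0.87 (SE 0.170, 1.82-fold, adjusted p = 0.000505). CYCA2;4 stood at 10.6, 9.98 and 9.82 CPM, against 6.76, 6.66 and 6.83 CPM in WT, a log2 change of 0.59 (SE 0.131, adjusted p = 0.00157). Its groups did not overlap, and the spread within each was small. CYCA2;2 stood at 4.76, 5.66 and 5.99 CPM in bte1 btl1, against 4.20, 4.002 and 3.98 CPM in WT. Its log2 change of 0.43 (SE 0.144, adjusted p = 0.0268) was not called with DESeq2 (0.057), with only these genotypes in the fit (0.0539), or without bte1 btl1 replicate 2 (0.0771), bte1 btl1 replicate 3 (0.111), WT replicate 2 (0.0671) or WT replicate 3 (0.0711). The other 6 genes had log2 changes of 0.04 to 0.35, none called.

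With bte1 added to btl1, 1 A-type cyclin was called, and all 9 had positive log2 changes (median 0.25). CYCA2;4 stood at 10.6, 9.98 and 9.82 CPM in bte1 btl1, against 6.39, 5.98 and 6.92 CPM in btl1, a log2 change of 0.66 (SE 0.136, 1.57-fold, adjusted p = 0.00366). Both genotypes belong to the second set, 4.49% of all genes were called in the comparison, and the call held without any single library of both genotypes. CYCA1;1 had a log2 change of 0.30 between them (95% interval -0.06 to 0.65, adjusted p = 0.437). In btl1 alone it was the only member called against WT, in a comparison where 17.3% of genes were called. It stood at 16.2, 13.4 and 13.4 CPM in btl1, against 10.7, 8.99 and 9.15 CPM in WT, with a log2 change of 0.57 (SE 0.171, 1.49-fold, adjusted p = 0.0229). That call was lost without btl1 replicate 1 (0.115), WT replicate 2 (0.0804) or WT replicate 3 (0.0773). The mean of this gene was above that of WT in all 7 mutant genotypes, from 10.6 CPM in bte1 hid1 to 17.6 CPM in bte1 btl1, against 9.62 CPM in WT. The test of whether the effect of bte1 on CYCA2;4 differs between the btl1 and WT backgrounds gave a log2 difference of 0.70 (SE 0.189, adjusted p = 0.236). No A-type cyclin passed that test (edgeR, where 2 had an unadjusted p under 0.05, and DESeq2 called 0), in which 0.0685% of all genes did.

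Marker levels differed between bte1 btl1 and WT as well. Stomatal lineage genes summed to 43.4 to 46.1 CPM in bte1 btl1, against 57.9 to 59.8 CPM in WT, with SPCH (log2 change -0.48), MUTE (-1.10) and FAMA (-0.54) called lower. The meiocyte list summed to 46.3 to 52.2 CPM in bte1 btl1, against 9.37 to 13.5 CPM in WT. In it DMC1 (log2 change 2.21) and SPO11-1 (2.31) were called higher, whereas SDS had a change of -0.40 and was not called. The meiotic cyclin TAM was not called either, at 1.92 CPM in bte1 btl1 (SD 0.138, n = 3) and 1.71 CPM in WT (SD 0.431, n = 3). Its log2 change was 0.17 (95% interval -0.54 to 0.88). Leaf mesophyll sums were 33520 to 36190 CPM in bte1 btl1, against 36660 to 38690 CPM in WT, with RBCS1A called higher (0.57) and LHCB1.3 lower (-0.66). Seed storage genes summed to 0.937 to 63.0 CPM in bte1 btl1, against 0.084 to 0.744 CPM in WT, and these groups did not overlap. STM, a gene of the shoot meristem, was called lower (-0.57, adjusted p = 0.0281), and root sums were 68.4 to 74.0 CPM in bte1 btl1, against 69.7 to 79.7 CPM in WT. In btl1 too the stomatal (49.2 to 55.8 CPM) and mesophyll sums (28710 to 34450 CPM) lay below WT and the meiocyte sums (20.21 to 21.8 CPM) above it, with DMC1 (0.98) and SPO11-1 (1.27) called higher and SDS lower (-1.13). STM was called lower in btl1 (-0.78), RBCS1A higher (0.43) and LHCB1.3 lower (-0.78), seed sums were 0.532 to 88.4 CPM and overlapped WT, and root sums were 71.3 to 77.3 CPM, with PIN2 (0.62) and COBL9 (0.72) called higher and SCR lower (-0.30). Between bte1 btl1 and btl1 the stomatal and meiocyte sums did not overlap either. The part of these differences in the cyclin changes was not tested.

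In hid1, CYCA1;1 was the only A-type cyclin called against WT, with 3.44% of all genes called. In 5 of the 9 genes every hid1 library lay above WT, against 12.5% of all genes. The called gene stood at 16.9, 14.3 and 16.7 CPM in hid1, against 10.7, 8.99 and 9.15 CPM in WT. Every hid1 library lay above every WT library, and the log2 change was 0.73 (SE 0.167, 1.66-fold, adjusted p = 0.0141). The call was lost without hid1 replicate 1 (0.0628), hid1 replicate 3 (0.0626), WT replicate 2 (0.0735) or WT replicate 3 (0.063). CYCA2;4 stood at 9.02, 7.82 and 10.2 CPM in hid1, against 6.76, 6.66 and 6.83 CPM in WT. The groups did not overlap, but the log2 change of 0.41 (SE 0.128) had an adjusted p of 0.0761, which was 0.0459 without hid1 replicate 2. The other 7 genes had log2 changes of -0.06 to 0.26. The hid1 and WT libraries belong to the same set. Marker sums that did not overlap WT in hid1 were those of meiocytes (15 to 16.9 CPM in hid1, against 9.37 to 13.5 CPM in WT, with DMC1 called higher at 0.52) and of the stomatal lineage (47.8 to 57.3 CPM in hid1, against 57.9 to 59.8 CPM in WT, no gene called). Seed storage genes summed to 0.694 to 78.1 CPM in hid1, against 0.084 to 0.744 CPM in WT, mesophyll genes to 34990 to 36840 CPM in hid1, against 36660 to 38690 CPM in WT, and root genes to 73.5 to 75.8 CPM in hid1, against 69.7 to 79.7 CPM in WT. Their part was not tested.

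With bte1 added to hid1, CYCA1;1 was lower than in hid1 alone. It stood at 10.5, 9.82 and 11.5 CPM in bte1 hid1, against 16.9, 14.3 and 16.7 CPM in hid1, and the groups did not overlap. The log2 change was -0.59 (SE 0.166, adjusted p = 0.0301), in a comparison where 7.43% of all genes were called. It was not called without bte1 hid1 replicate 1 (0.0976), bte1 hid1 replicate 2 (0.105), hid1 replicate 1 (0.0989) or hid1 replicate 3 (0.105). Without bte1 hid1 replicate 1, CYCA3;2 was called instead (0.0269). CYCA2;2, CYCA2;4 and CYCA3;1 had log2 changes of -0.39, -0.36 and -0.58, with adjusted p of 0.1, 0.0816 and 0.106, and in each the libraries did not overlap. With the called gene these make 4 of the 9 genes in which every bte1 hid1 library lay below hid1, against 15.1% of all genes. The hid1 libraries that enter this comparison also enter that of hid1 with WT. Whether the effect of bte1 on CYCA1;1 differs between the hid1 and WT backgrounds was tested directly: the log2 difference was -0.78 (SE 0.237, adjusted p = 0.164), and -0.79 with an adjusted p of 0.0228 when only these 4 genotypes were in the fit. No member was called in this test (edgeR, where 2 had an unadjusted p under 0.05, and DESeq2 called 0), in which 0.343% of all genes were. Marker sums of seed (0.132 to 0.56 CPM in bte1 hid1, against 0.694 to 78.1 CPM in hid1) did not overlap. Those of the shoot meristem (3.42 to 4.485 CPM in bte1 hid1, against 4.75 to 6.33 CPM in hid1) did not overlap either, and STM was not called (-0.43). The sums of the stomatal lineage (52.6 to 55.6 CPM in bte1 hid1, against 47.8 to 57.3 CPM in hid1), meiocytes (16.1 to 17.2 CPM in bte1 hid1, against 15 to 16.9 CPM in hid1), mesophyll (33570 to 36160 CPM in bte1 hid1, against 34990 to 36840 CPM in hid1) and root (75.4 to 83.2 CPM in bte1 hid1, against 73.5 to 75.8 CPM in hid1) overlapped. TMM (0.34) and the root hair gene COBL9 (0.83) were called higher. Their part was not tested.

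The hid1 phil1 double mutant was lower than hid1 in CYCA3;2. This gene stood at 16.1, 14.4 and 13.0 CPM in hid1 phil1, against 20.4, 17.99 and 21.0 CPM in hid1. The groups did not overlap, and the log2 change was -0.45 (SE 0.104, adjusted p = 0.0115), with 6.45% of all genes called. In 5 of the 9 genes every hid1 phil1 library lay below hid1, against 12.9% of all genes. The call was lost without hid1 replicate 3 (0.0723), without hid1 phil1 replicate 3 (0.0638) and with only these genotypes in the fit (0.0636). Without hid1 phil1 replicate 2, the library that stood apart, the change was -0.44 (0.0387). In the other genotypes the level of this gene had a mean of 16.5 (SD 0.572) CPM in btl1, 19.6 (SD 0.440) in bte1 btl1, 16.5 (SD 2.73) in bte1 hid1, 18.1 (SD 1.02) in bte1, 16.0 (SD 1.59) in e2f and 17.3 (SD 0.475) in WT (n = 3 each). CYCA1;1 stood at 14.3, 7.54 and 11.7 CPM in hid1 phil1, against 16.9, 14.3 and 16.7 CPM in hid1. Its log2 change of -0.52 (adjusted p = 0.0623) was -0.30 (0.287) without replicate 2, the lowest library, whereas without hid1 phil1 replicate 1 it was called (0.0125), as it was with DESeq2 (0.0427). CYCA2;1 had a log2 change of -0.81 (SE 0.264, adjusted p = 0.065), on 12 to 22 reads per hid1 phil1 library and 28 to 39 reads per hid1 library, and -0.59 (0.259) without hid1 phil1 replicate 2. Markers differed here too. Meiocyte genes summed to 11.1 to 13.5 CPM in hid1 phil1, against 15 to 16.9 CPM in hid1. Of these only DMC1 was lower (-0.45, called), and the other 2 had log2 changes of 0.09 and 0.11, not called. Stomatal lineage genes summed to 58.6 to 66.3 CPM in hid1 phil1, against 47.8 to 57.3 CPM in hid1, with TMM called higher (0.46). LHCB2.1 was called higher (0.63) and WER lower (-0.79), mesophyll sums were 33940 to 46770 CPM in hid1 phil1, against 34990 to 36840 CPM in hid1, and seed sums 0.091 to 1.40 CPM in hid1 phil1, against 0.694 to 78.1 CPM in hid1. Their part was not tested.

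No A-type cyclin was called in bte1 against WT (edgeR and DESeq2 both 0, and 0 with an unadjusted p under 0.05), where 2.52% of all genes were, nor in bte1 hid1 against WT (0 in both tools and 0 unadjusted, 2.4% of genes). The same held for bte1 hid1 against bte1 (0 in both tools and 0 unadjusted, 0.224% of genes). In hid1 phil1 against WT none was called by either tool and 2 had an unadjusted p under 0.05, CYCA2;1 and CYCA3;2, where 0.114% of genes were called. The precision differed between genes: in bte1 against WT the 95% interval of the log2 change ran from -0.31 to 0.13 for CYCA2;3 and from -0.62 to 0.73 for TAM, which had 38 to 41 reads per bte1 library.

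**Figure D4:**
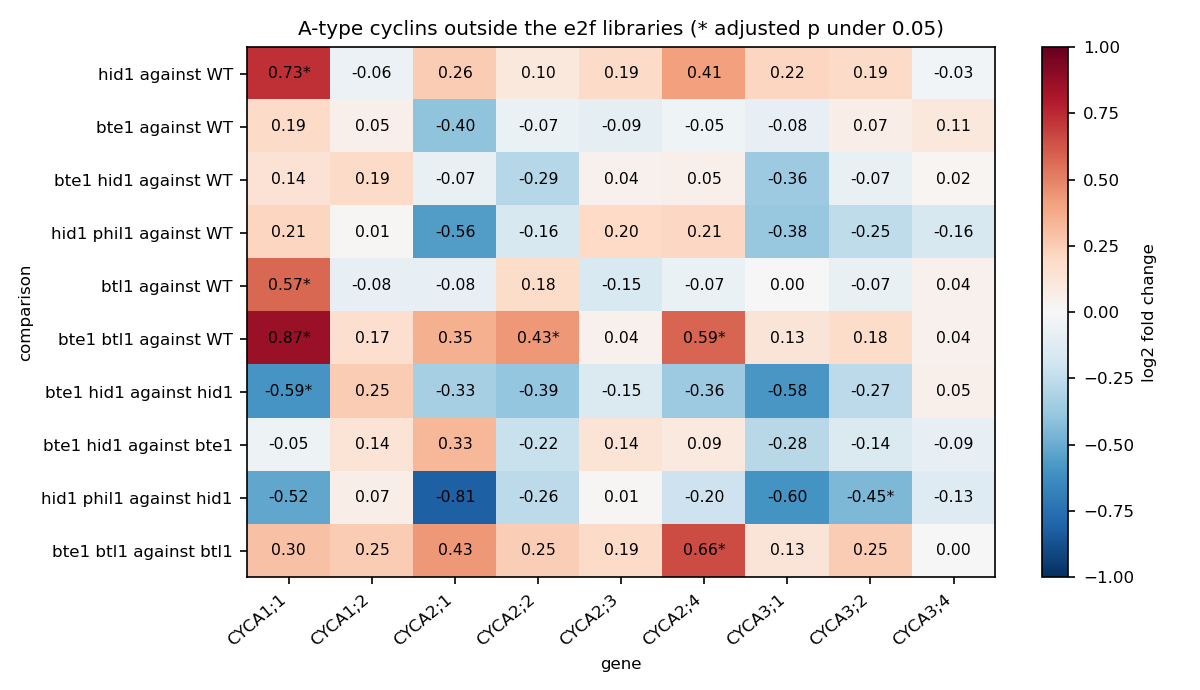
Log2 fold change of each A-type cyclin (columns) in the 10 comparisons without e2f (rows), coloured from blue (lower) to red (higher) with the value printed and a star at an adjusted p under 0.05. The column of CYCA1;1 holds 4 of the 8 stars (0.73, 0.57, 0.87 and -0.59).

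Across genotypes the genes had different ranges. The highest genotype mean was 12.5 times the lowest for CYCA2;1 and 3.57 times for TAM. For CYCA1;1 it was 1.83 times, with the order bte1 btl1, hid1, btl1, e2f, hid1 phil1, bte1, bte1 hid1 and WT, and every pair of neighbours in that order overlapped. For TAM and all A2 genes except CYCA2;3, e2f stood first and did not overlap the next genotype, and all further neighbours overlapped. CYCA3;4 had means of 11.5 CPM (hid1 phil1) to 13.9 CPM (bte1), and all neighbours overlapped. Its mean was 13.2 (SD 0.908) CPM in btl1, 13.3 (SD 1.37) in bte1 btl1, 13.1 (SD 0.818) in bte1 hid1, 12.6 (SD 1.21) in hid1, 11.7 (SD 2.23) in e2f and 12.9 (SD 1.23) in WT (n = 3 each). The summed level of the 9 genes was 142.4 CPM in e2f (131.8 to 150.4), 92.4 CPM in bte1 btl1 (90.3 to 96.3), 89.9 CPM in hid1 (81.7 to 95.01) and 75.4 CPM in WT (72.1 to 79.3). The remaining genotypes had mean sums of 74.7 to 77.9 CPM.

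Other genes of the division cycle were counted in the same comparisons. In e2f against WT, 8 of 9 B-type cyclins, the cyclins of mitosis, were called higher and none lower, with a median log2 change of 0.74, against 0.46 for the A-type cyclins and -0.01 for all genes tested. These counts stand against 26.4% of all genes called higher and 52.2% called in either direction. CYCB1;1 (1.05) had the smallest adjusted p among them. Of the 7 CDK partners and Cks proteins 5 were higher and 1 lower, led by CDKB1;1 (2.08, adjusted p = 1.99e-11), the known partner of the A2 cyclins. Among 9 APC/C genes (activators, inhibitors and the subunit CDC27B), 5 were higher and 2 lower. OSD1, an APC/C inhibitor, had a log2 change of 2.05, and CCS52A2, an APC/C activator, one of -1.33. Of 8 S-phase genes 6 were higher, among them the helicase subunit MCM7 (1.42) and the replication clamp PCNA2 (1.20). Of 12 transcriptional regulators 5 were higher and 2 lower, which is near that share of all genes, and RBR1 had a change of 1.49. This list holds E2FA, E2FB and E2FC, the genes named in the e2f label, and E2FC (2.04) was among those called higher.

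In bte1 btl1 against WT, 5 of 7 CDK partners and Cks proteins and 5 of 9 APC/C genes were called higher. The same held for 6 of 8 S-phase genes and 2 of 9 B-type cyclins, where 14.8% of all genes were called higher. No gene of these lists was called lower. CKS2 (1.16), CDKB2;1 (0.88), PCNA1 (1.02) and PCNA2 (1.00) were called with the smallest adjusted p of their lists, and the median change of the A-type cyclins was 0.18. In hid1 against WT, 3 of 9 B-type cyclins, 2 of 9 APC/C genes and 1 of 8 S-phase genes were higher. Of the CDK partners 0 of 7 were called, where 3.44% of all genes were called in either direction. The examples are CYCB1;1 (0.90), CDC20.1 (0.63), CDC20.2 (0.62) and MCM5 (0.32), and the A-type median was 0.19. In bte1 hid1 against hid1, 5 of 9 B-type cyclins were lower, among them CYCB2;4 (-0.69), where 7.43% of all genes were called in either direction. In hid1 phil1 against hid1, 4 of 9 were lower, where 6.45% of all genes were called.

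**Figure D5:**
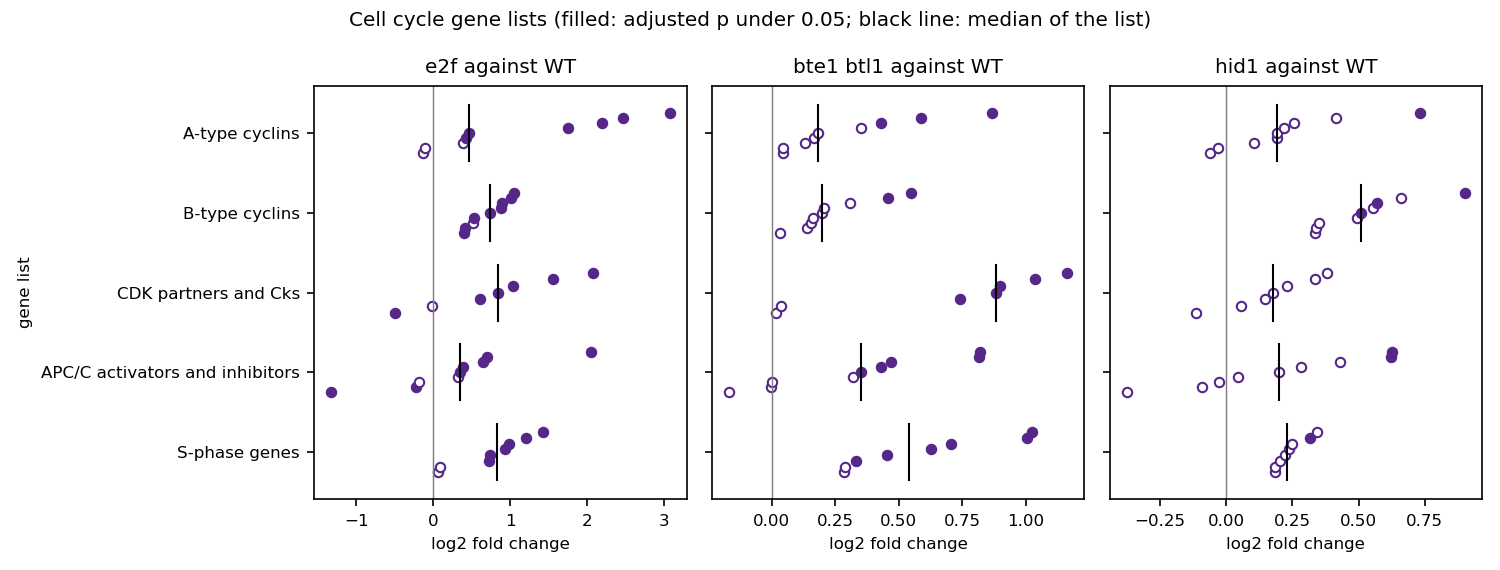
Log2 fold change (horizontal axes, scales differ) of the A-type cyclins and of 4 other lists of cell cycle genes (rows) in e2f, bte1 btl1 and hid1, each against WT. Points are genes, filled at an adjusted p under 0.05, and black lines are list medians. The A-type medians are 0.46, 0.18 and 0.19, and in e2f the A-type row holds the highest point (3.07).

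Over the 24 libraries, all A2 genes except CYCA2;3 varied together, with Pearson r of 0.946 to 0.951 between their log2 CPM, and TAM had r of 0.826 to 0.832 with them. The exception had r of 0.613 to 0.755 with the other A2 genes. Libraries of 1 genotype share their source and the e2f libraries carry much of these values: over the 21 libraries without e2f, r was 0.438 to 0.539 between the A2 genes that varied together and 0.054 to 0.217 between TAM and these, and the closest of the pairs with CYCA1;1 was CYCA2;4 (0.73). The non-member genes whose pattern over all 24 libraries was most like that of a member were also listed, as a description. Members are given here by identifier, and r without e2f was not computed for these genes. For the A2 gene AT1G80370 these were BRCA1, a gene of DNA repair (r = 0.984), AT2G36200 (0.977) and CHR24 (0.973). For AT5G11300 they were ASY3, a protein of the meiotic chromosome axis (0.984), the Argonaute AGO6 (0.976) and AT3G63480 (0.975), and for AT5G25380 the atypical E2F gene DEL3 (0.976), AT2G36200 (0.971) and AT4G12540 (0.966). For AT1G15570 they were the receptor-like kinase IMK2 (0.914), AT3G20010 (0.878) and the spindle protein TPX2 (0.873). TAM had AT5G22480 (0.887), AT5G43660 (0.886) and AT4G10265 (0.883). The other A1 gene, AT1G44110, was nearest to LSF2 and AT2G07170 (both 0.858). Among the A3 genes the highest r was 0.873 for AT5G43080 (with IMP4), 0.771 for AT1G47230 (with AT1G70505 and PPL1) and 0.758 for AT1G47210 (with AT3G28460).

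In the TAIR10.1 annotation CYCA2;3 overlaps the auxin response gene IAA5 by 48 bases on the other strand, and CYCA3;4 overlaps the metal transporter gene NRAMP2 by 46 bases. The strand used in counting is not given in the sources used here, so reads in these overlaps cannot be assigned. IAA5 averaged 0.496 CPM in e2f against 0.86 CPM in WT (log2 change -0.78, not called), and NRAMP2 15.8 CPM in e2f against 16.3 CPM in WT. The longest exact stretch shared by transcripts of different members was 29 bases, between 2 A2 genes, and CYCA3;2 shares 36 bases with the unread A3 gene.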

How the data were processed

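Poly(A) RNA of 24 libraries was measured, 3 per genotype. Per the submitters' processing notes, reads were handled with fastp, HISAT2 2.1.0 and SAMtools 1.6 on TAIR10. The counting tool, its strand setting and the annotation release are not given in the sources used here. The deposited count table holds raw gene counts made by the authors. The deposited FPKM table, named so per the file headers, holds the authors' values per kilobase of transcript, scaled by library. It served to name the second set, to compare levels between genes within a genotype and to compare shares of the family between genotypes.

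From the counts, TMM factors (0.922 to 1.03) and CPM were computed, and edgeR 4.0.16 (R 4.3.3, limma 3.58.1) fitted all 24 libraries of 8 genotypes together with robust quasi-likelihood dispersions after filterByExpr (21897 genes kept, 11715 removed, biological coefficient of variation 0.106). There were 12 comparisons of 2 genotypes and 2 tests of non-additivity, each adjusted by Benjamini-Hochberg over all genes, with a threshold of 0.05. Simulated data of the e2f and WT comparison (21624 genes) gave recovery of 59.7%, 89.6% and 97.0% of genes changed 1.5-, 2- and 4-fold, with 2.38% false calls. There 67, 67 and 66 genes were changed, and every gene had the same spread in all genotypes. In the real comparison 52.2% of genes were called and the e2f libraries lay far apart, so these rates may not hold for it. Counting error limits the lowest genes, which had 12 to 50 reads in most libraries. Promoter windows (250 bases before to 50 after the gene start) came from RefSeq's TAIR10.1, in which 28932 identifiers of the count table were found.

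All members are described whatever their values. Other lists are given as counts, naming 1 or 2 of the called genes with the smallest adjusted p, and likeness names the 3 non-members with the highest Pearson r of log2 CPM (prior count 2, mean of at least 1 CPM). HID1, the e2f genes, and the genes that overlap a member were added as checks. The members, lists and tests were chosen with earlier results of these data known. Alternatives were leaving out each library, a replicate block, a fit of only the compared genotypes, DESeq2 1.42.0, keeping low-count genes and RLE size factors.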

Additional observations from a re-analysis of the deposited data

How the results depend on the processing

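RLE size factors and the absence of a low-count filter changed no call of a member (126 tests each). The count of members called in hid1 phil1 against hid1, 1 in the fit of all libraries, was 2 with DESeq2 and 0 with only these genotypes in the fit. In the non-additivity of bte1 and hid1 it was 1, against 0, with only the 4 genotypes in the fit (CYCA1;1). Leaving out single libraries gave 0 to 2 calls in hid1 against WT, 0 to 1 in btl1 against WT, 0 to 1 in bte1 hid1 against hid1, 0 to 2 in hid1 phil1 against hid1, 2 to 3 in bte1 btl1 against WT, 5 to 7 in e2f against WT and 5 to 6 in e2f against btl1. It left 1 in bte1 btl1 against btl1 and 0 in the other comparisons. In all, 21 calls were lost and 5 were gained over these fits, and the libraries are named beside each result in the report, except that CYCA3;1 was also gained in e2f against btl1 without e2f replicate 3 (0.0272). No called change turned its direction. The cause of these differences was not tested.

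The replicate numbers did not pair the samples: of 36 same-numbered pairs, 11 had correlated deviations over 0.1 (range -0.128 to 0.244), and in 0 comparisons did every pair. With the replicate block the count in hid1 phil1 against hid1 was 3, with CYCA1;1 (-0.53, adjusted p = 0.0197) and CYCA2;1 (-0.82, 0.0419) added, and the block changed no other call. TAM and CYCA2;1 rest on the fewest reads outside e2f, which limits what could be detected for them.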
